A study of Homo sapiens with 16 samples.

Results

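The effect of a guide RNA against YES1 was compared gene by gene between 2 established cell lines of human triple-negative breast cancer, MDA-MB-231 and SUM159PT. For every gene the log2 change from the non-targeting guide to the YES1 guide in MDA-MB-231 was subtracted from the same change in SUM159PT, and this difference was tested as the interaction of line and guide. All 16 of the 16 libraries of the series entered the comparison, and 16640 of 58735 listed genes had enough reads to be tested. The 4 groups of 4 libraries each were MDA-MB-231 with the non-targeting guide (sgNTS), MDA-MB-231 with the YES1 guide (sgYES1), SUM159PT with sgNTS and SUM159PT with sgYES1. The labels call the genotype of every sample WT, and cells of all groups received guide RNA by Lipofectamine2000 and were collected 48 h after transfection, in the medium of their own line. The labels used here name no protein acting with the guides and describe no edited clone, so each library is RNA of a transfected population. The submitters describe the replicates as technical, so p-values measure the spread between these libraries only.

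YES1 is a kinase of the Src family, which relays signals from growth factor receptors and adhesion sites. Several of the genes described here belong to the integrated stress response: kinases that sense amino acid shortage, unfolded proteins, heme loss or double-stranded RNA phosphorylate eIF2alpha, which favours translation of the transcription factor ATF4. ATF4 then drives genes of amino acid synthesis and uptake, tRNA charging, mTORC1 restraint and, on longer stress, cell death. Mitotic and S-phase genes, chaperones of the heat shock response, interferon-stimulated genes and NF-kB targets are the other sets described.

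The genes with the largest guide effects of opposite sign in the lines are the ones the results turn on, and the bases just before a RefSeq start of 4 of them are shown because each holds 1 of the 4 motifs searched. Of 12 such genes, 9 had an entry in the RefSeq promoter table (GRCh38.p14). The 250 bases before each start are given 5′ to 3′ on the strand of the gene, with the matched motif in capitals. A gene can have several starts, and 1 entry per gene was used: the windows of CHAC1 and DDIT3 lie inside the gene as the deposited tables place it, downstream of its outermost 5′ end.
CHAC1, chr15:40953221-40953470, plus strand: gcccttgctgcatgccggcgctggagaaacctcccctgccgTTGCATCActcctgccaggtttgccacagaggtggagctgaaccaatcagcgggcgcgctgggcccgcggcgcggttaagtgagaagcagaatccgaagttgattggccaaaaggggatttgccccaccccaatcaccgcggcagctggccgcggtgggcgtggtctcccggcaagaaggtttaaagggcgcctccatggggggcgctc
SESN2, chr1:28259268-28259517, plus strand: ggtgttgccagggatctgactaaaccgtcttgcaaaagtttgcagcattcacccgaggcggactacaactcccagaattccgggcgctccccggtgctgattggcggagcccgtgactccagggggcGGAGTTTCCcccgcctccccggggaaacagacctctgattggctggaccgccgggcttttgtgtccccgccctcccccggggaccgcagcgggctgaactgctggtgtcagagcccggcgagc
DDIT3, chr12:57520515-57520764, minus strand: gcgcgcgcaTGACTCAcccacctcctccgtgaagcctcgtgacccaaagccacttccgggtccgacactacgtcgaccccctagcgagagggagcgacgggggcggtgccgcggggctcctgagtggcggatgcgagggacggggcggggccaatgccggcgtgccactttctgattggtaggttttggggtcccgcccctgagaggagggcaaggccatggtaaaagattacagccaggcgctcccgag
ID1, chr20:31605039-31605288, plus strand: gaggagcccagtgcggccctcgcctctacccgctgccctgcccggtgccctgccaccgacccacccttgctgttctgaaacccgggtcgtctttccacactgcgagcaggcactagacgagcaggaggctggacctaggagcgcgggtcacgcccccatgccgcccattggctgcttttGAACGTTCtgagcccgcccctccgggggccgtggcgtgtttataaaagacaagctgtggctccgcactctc

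The capitals mark the C/EBP-ATF composite element TTGCATCA in CHAC1, which begins 209 bases before the start, and the NF-kB-like motif GGNNTTTCC in SESN2, 123 bases before it. In DDIT3 they mark the AP-1 element TGACTCA, 241 bases before the start, and in ID1 the heat shock element core GAANNTTC, 71 bases before it. On both strands, these motifs occurred in the same window of 0.82%, 5.48%, 4.16% and 5.85% of 27305 RefSeq promoters, in that order. No letters matching any of them were found in the windows of CTH, ARRDC3, LPCAT1, DKK1 and ERCC6L. The other genes of the 12 are GADD45A, FAM111B and GPRC5A. A match is a description of the letters, not of binding.

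Depth, in 1e6 counts per library, was 17.2 to 25.1 for MDA-MB-231 and 14.4 to 20.9 for SUM159PT. The sgNTS replicate 4 of MDA-MB-231 stood apart from its group: its mitochondrial transcripts were 2.34% of counts against 3.81% to 5.15% in the other sgNTS libraries. SUM159PT sgNTS replicate 2 stood apart for stress genes and other lists. The mean log2 deviation of the integrated stress response list from the group mean was -0.31 there and 0.04 to 0.15 in the other 3. For inflammation it was -0.33 against -0.03 to 0.3, for mitosis 0.09 against -0.05 to 0.01 and for heat shock 0.09 against -0.11 to 0.01. With both of these control libraries left out, 4200 genes differed between the lines in place of 4085. As markers of the labelled cell type, PGR had no count in any library and ESR1 had group means of at most 0.263 CPM (TMM-scaled counts per 1e6 counts). Leukocyte markers summed to 339 to 372 CPM in MDA-MB-231 sgNTS and 359 to 380 in sgYES1, most of it CD74, and to 2.19 to 3.43 and 4.39 to 7.69 CPM in SUM159PT, while PTPRC, the pan-leukocyte marker, had group means of at most 0.238 CPM. Fibroblast markers summed to 26.4 to 31.2 CPM with sgNTS and 33.2 to 35.9 CPM with sgYES1 for MDA-MB-231, and to 108 to 117 and 114 to 142 CPM for SUM159PT. Endothelial markers summed to 150 to 158 and 151 to 164 CPM for MDA-MB-231, and to 8.21 to 9.42 and 6.84 to 12.1 CPM for SUM159PT.

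YES1 RNA itself fell in both lines, with falls of 2.52-fold (MDA-MB-231) and 2.37-fold (SUM159PT). The YES1 gene (ENSG00000176105, hg38 chr18:721588-812546, minus strand) was read at 105, 109, 106 and 112 CPM in MDA-MB-231 sgNTS and at 41.3, 42.4, 43.7 and 43.3 CPM in sgYES1. In SUM159PT it was read at 98.4, 94.9, 91.8 and 91.5 CPM with sgNTS and at 40.4, 40.3, 39.3 and 38.8 CPM with sgYES1. The guide groups did not overlap in either line, as was so for 36.8% of tested genes in MDA-MB-231 and for 31.4% of them in SUM159PT. The log2 effects were -1.33 (SE 0.04) and -1.25 (SE 0.04), and their difference of 0.09 (95% interval -0.04 to 0.21) did not pass the test (edgeR, adjusted p = 0.308). In bulk RNA, fewer cells with a transcript and less of it per cell cannot be told apart, here and below.

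The guide effect differed between the lines for 4085 genes (24.5% of those tested; edgeR quasi-likelihood interaction test, Benjamini-Hochberg adjusted p under 0.05). For 2111 of them (12.7%) the effect was higher in SUM159PT and for 1974 (11.9%) it was lower. A difference of at least 2-fold was reached by 568 genes (3.41%), of which 223 (1.34%) were higher and 345 (2.07%) lower in SUM159PT. The balance of directions depended on single libraries: 51.7% of the calls were higher in SUM159PT with all libraries, and 64.3% without SUM159PT sgNTS replicate 1. Within the lines, the guide changed 6453 genes in MDA-MB-231 (38.8%) and 5970 in SUM159PT (35.9%). Of those calls 50.4% were upward for MDA-MB-231 and 49.9% for SUM159PT, against 61.0% and 58.6% with library totals in place of TMM and 42.8% and 48.2% with DESeq2 size factors.

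Most of the line-dependent genes had a guide effect in 1 line that was not called in the other. Of the 4085 genes, 1455 (35.6%) were called for the guide in MDA-MB-231 alone, 1446 (35.4%) in SUM159PT alone and 143 (3.5%) in neither. Another 445 (10.9%) moved in the same direction by different amounts, 236 of them more in MDA-MB-231 and 209 more in SUM159PT. The remaining 596 (14.6%) moved in opposite directions. Of these, 273 rose in MDA-MB-231 and fell in SUM159PT, with a median absolute difference of 0.67 (log2), and 323 did the reverse, with a median of 0.50. The count of 273 was the less stable one: it dropped to 178 without MDA-MB-231 sgNTS replicate 3, to 165 and 169 without SUM159PT sgNTS replicates 1 and 3, and to 180 without SUM159PT sgYES1 replicate 3. Seen from the genes called in both lines in the same direction, 2372 in number, 445 (18.8%) differed in size.

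**Figure D1:**
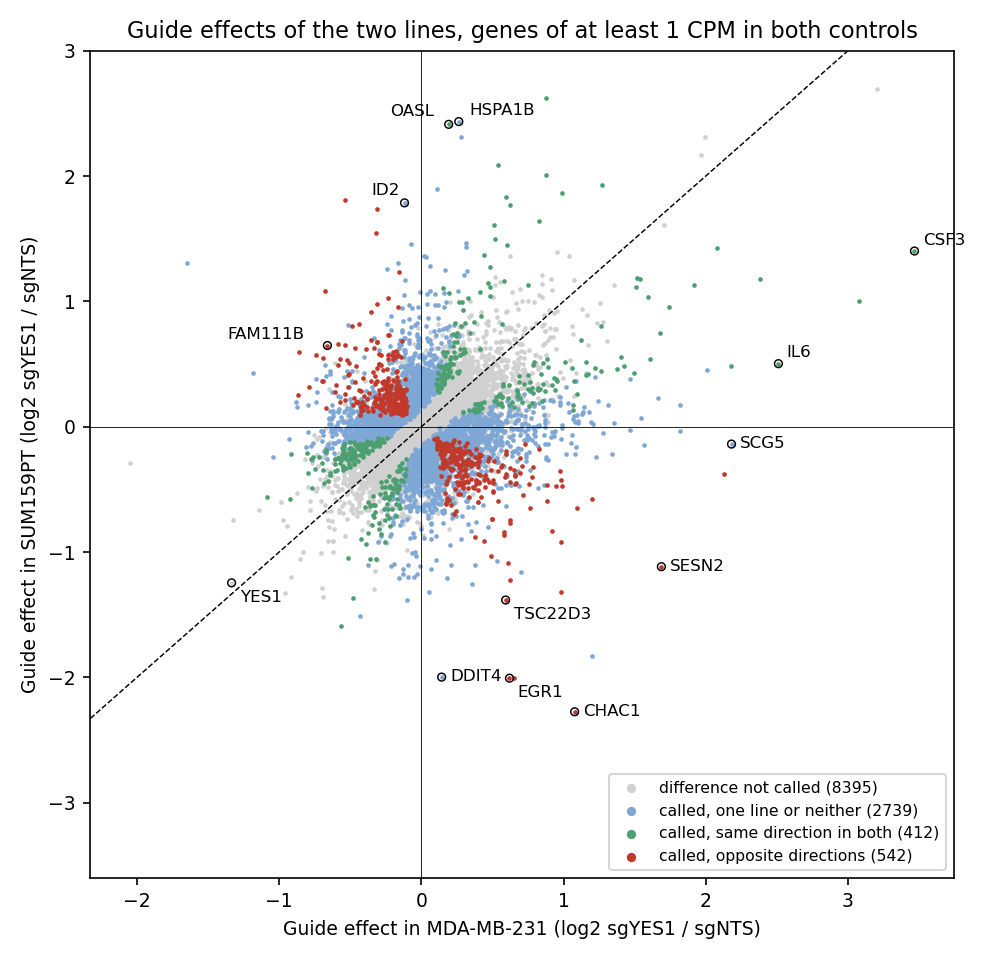
Each point is 1 of 12088 genes with at least 1 CPM in the sgNTS libraries of both lines: its log2 guide effect in MDA-MB-231 (horizontal) against that in SUM159PT (vertical), coloured by whether the difference was called and by the directions of the effects. Genes on the dashed diagonal had equal effects, as YES1 nearly did. SESN2, CHAC1, TSC22D3 and EGR1 lie in the lower right quadrant and FAM111B in the upper left, where the lines moved in opposite directions.

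The share of genes called for the difference was larger at higher control levels. Of 12088 genes with at least 1 CPM in the sgNTS libraries of both lines, 3693 (30.6%) differed, against 156 of 1532 (10.2%) that reached 1 CPM in MDA-MB-231 sgNTS only and 154 of 1171 (13.2%) that did so in SUM159PT sgNTS only. By the geometric mean of both control levels, 522 of 2749 genes (19.0%) differed at 1 to 10 CPM, 2228 of 7069 (31.5%) at 10 to 100 CPM and 943 of 2270 (41.5%) above 100 CPM. The differences of the called genes were smaller at higher levels, with median absolute values of 0.74, 0.37 and 0.27 (log2) in that order. The part of read depth in these shares was not tested. Among the genes present in both controls, the median absolute difference of effects was 0.18 (log2), with a median SE of 0.10, and the 5th and 95th percentiles of the difference were -0.60 and 0.48. Across these genes the effects in the lines, which share no library, had a Pearson r of 0.33 and a Spearman rho of 0.32, as a description over genes that are not independent. The lines themselves were further apart: with sgNTS the median absolute line difference was 0.53 and with sgYES1 0.50, and 13608 (81.8%) and 13376 (80.4%) of the tested genes differed between lines. The line difference with sgNTS and the difference of guide effects use the same sgNTS libraries, so their values are given side by side without relating them.

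Genes of the integrated stress response formed the list with the largest median difference. Of its 34 tested members, 24 had a lower guide effect in SUM159PT than in MDA-MB-231 and 2 a higher one. Of all tested genes, 11.9% were called lower and 12.7% higher. The median difference was -1.02 (log2) against -0.01 over all tested genes. In MDA-MB-231 23 members rose and 5 fell (median 0.61), where 19.5% of all genes were called upward and 19.2% downward. In SUM159PT 2 rose and 23 fell (median -0.44), where 17.9% of all genes were called upward and 18.0% downward. The members called up in MDA-MB-231 and down in SUM159PT numbered 15, against 273 of all 16640 tested genes. At the control level, where 40.5% of all genes were called higher and 41.3% lower in SUM159PT, 28 of the 34 were higher there (median line difference 1.33), and with sgYES1 the median line difference was 0.21.

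CHAC1, which degrades glutathione and is a target of ATF4, showed the largest difference of the named genes. Its level in MDA-MB-231 was 6.45, 5.41, 5.89 and 4.98 CPM with sgNTS and 11.5, 13.3, 11.8 and 11.5 CPM with sgYES1. The SUM159PT values were 69.4, 32.3, 61.0 and 55.7 CPM with sgNTS and 8.69, 11.9, 12.5 and 12.2 CPM with sgYES1. The guide groups were apart in both lines, in opposite directions, and the sgYES1 libraries of the lines lay at similar levels. The fall was 4.84-fold in SUM159PT and the rise 2.11-fold in MDA-MB-231, a difference of -3.35 (SE 0.24, edgeR adjusted p = 3.56e-10). CHAC1 lies at hg38 chr15:40952962-40956519 on the plus strand (ENSG00000128965).

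SESN2, a leucine sensor and inhibitor of mTORC1 (ENSG00000130766, chr1:28259527-28282491, plus strand), behaved alike. It was read at 23.3, 20.7, 21.3 and 22.3 CPM in MDA-MB-231 sgNTS and at 78.7, 74.0, 72.2 and 58.9 CPM in sgYES1. SUM159PT sgNTS held 107, 53.5, 106 and 92.8 CPM and sgYES1 39.5, 42.0, 43.9 and 39.8 CPM. Replicate 2 was the lowest of the SUM159PT controls and still above every sgYES1 library. The log2 effects were 1.69 and -1.12, and the difference was -2.81 (SE 0.19, edgeR adjusted p = 1.82e-10).

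DDIT3, which encodes the death-promoting factor CHOP, was at 12.6 ± 0.378 CPM (SD, n = 4) in MDA-MB-231 sgNTS and at 23.9 ± 1.74 CPM in sgYES1. In SUM159PT it went from 30.2 ± 7.52 to 16.8 ± 1.91 CPM. TRIB3, a pseudokinase that restrains AKT signalling, was at 46.7 ± 1.28 and 71.0 ± 4.50 CPM in MDA-MB-231 and at 352 ± 92.1 and 166 ± 4.99 CPM in SUM159PT. Both genes rose in 1 line and fell in the other, with differences of -1.75 (SE 0.17) and -1.69 (SE 0.16). GADD45A, a growth arrest gene, went from 99.1 ± 1.30 to 196 ± 6.22 CPM in MDA-MB-231 and from 431 ± 89.0 to 227 ± 20.9 CPM in SUM159PT, a difference of -1.90 (SE 0.13). In SUM159PT the sgNTS spread of all 3 was wide, with replicate 2 below the rest.

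DDIT4, the mTORC1 inhibitor also called REDD1, had the smallest p of the list and moved in SUM159PT alone. Its sgNTS level there was 821, 564, 762 and 755 CPM and its sgYES1 level 162, 189, 166 and 210 CPM, a 3.99-fold fall. In MDA-MB-231 it was 79.2, 75.5, 82.7 and 73.2 CPM with sgNTS and 81.9, 84.6, 85.7 and 90.1 CPM with sgYES1, a log2 effect of 0.14 that was not called (adjusted p = 0.213, edgeR). The difference was -2.14 (SE 0.12). ATF4 RNA moved less in both lines than that of CHAC1, SESN2, DDIT3 and TRIB3, but in MDA-MB-231 more than that of DDIT4. ATF4 went from 240 ± 4.08 to 284 ± 10.5 CPM in MDA-MB-231 and from 521 ± 47.5 to 328 ± 3.43 CPM in SUM159PT. Its log2 effects of 0.24 and -0.67 were both called, as was their difference of -0.91 (SE 0.07). ATF3, a stress factor of the same family, rose 2.92-fold in MDA-MB-231 and had a log2 effect of 0.07 in SUM159PT that was not called, a difference of -1.47 (SE 0.15).

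**Figure D2:**
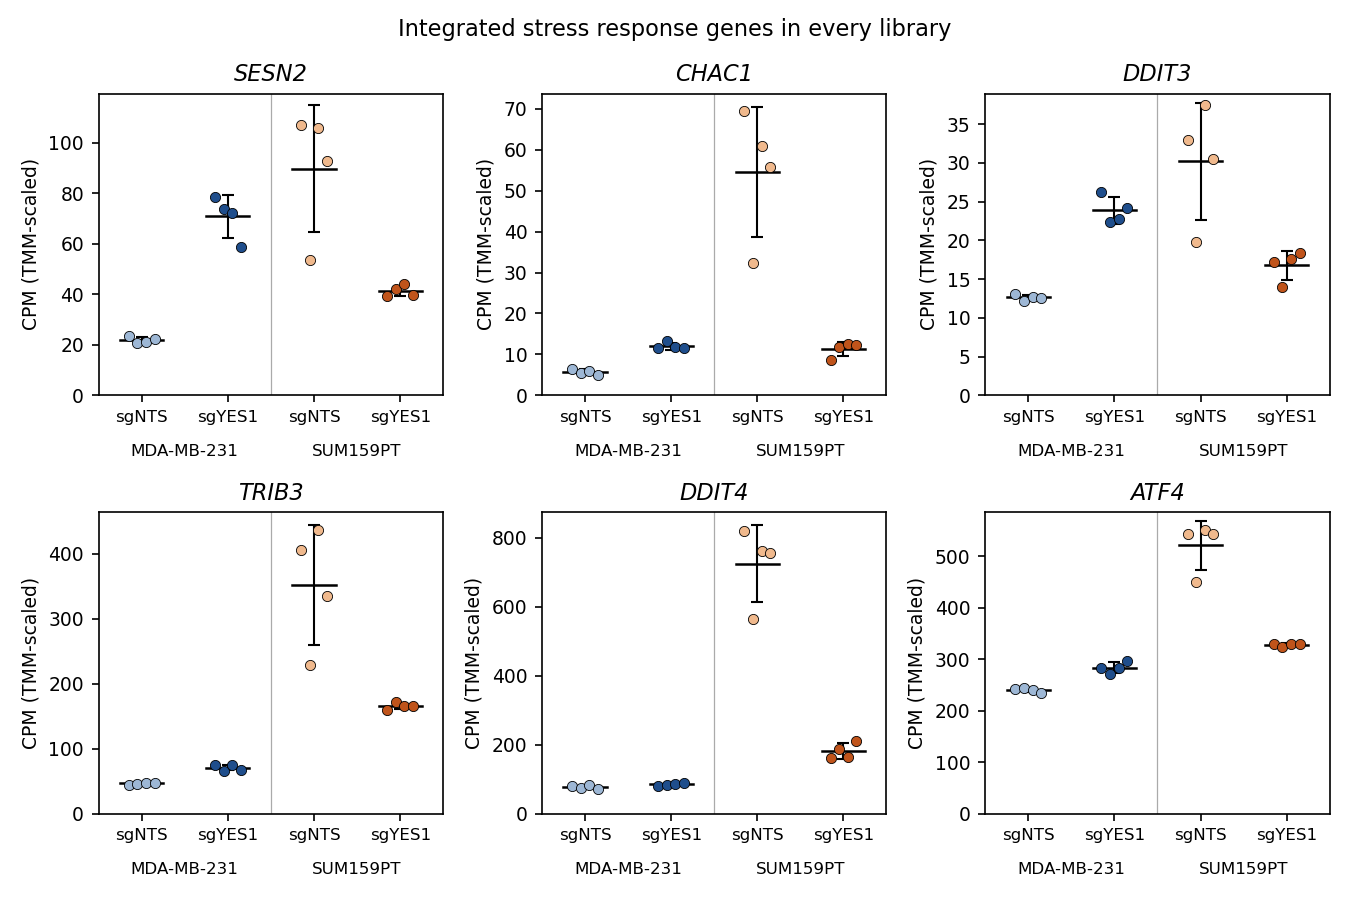
TMM-scaled CPM (vertical, from 0) of 6 integrated stress response genes in each of the 16 libraries, with the mean and SD of 4 libraries per group. SESN2, CHAC1, DDIT3, TRIB3 and ATF4 rise in MDA-MB-231 and fall in SUM159PT, DDIT4 falls in SUM159PT, and SUM159PT sgNTS replicate 2 is the lowest control library in each panel of that line.

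Enzymes that make amino acids fell more often than they rose in both lines. In the list of serine, one-carbon, asparagine and proline synthesis, 9 of 21 members had a lower effect in SUM159PT, 3 a higher one, and 9 were not called (median -0.18). In SUM159PT 14 members fell and 2 rose, where 35.9% of all genes were called, and in MDA-MB-231 7 fell and 3 rose, where 38.8% were. CTH, which makes cysteine from cystathionine, is one of the members of opposite direction: 8.21 ± 1.17 to 16.4 ± 1.55 CPM in MDA-MB-231 and 24.3 ± 5.99 to 9.67 ± 0.584 CPM in SUM159PT, a difference of -2.30 (SE 0.19). ASNS, asparagine synthetase, was at low levels throughout. It was at 1.78 ± 0.131 and 2.82 ± 0.244 CPM in MDA-MB-231 and at 8.12 ± 2.68 and 2.07 ± 0.749 CPM in SUM159PT, a difference of -2.65 (SE 0.33). The MDA-MB-231 rise of ASNS lost its call without any 1 of the 8 libraries of that line. PCK2, a mitochondrial enzyme that makes phosphoenolpyruvate, fell from 113 ± 17.2 to 43.2 ± 1.57 CPM in SUM159PT and was at 26.9 ± 1.88 and 25.0 ± 0.828 CPM in MDA-MB-231. GPT2, which makes alanine, fell from 107 ± 20.7 to 47.6 ± 2.01 CPM in SUM159PT, against 29.8 ± 1.75 and 29.2 ± 0.979 CPM in MDA-MB-231.

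Uptake and tRNA charging genes were also examined. Among amino acid transporters 8 of 20 had a lower effect in SUM159PT, 2 a higher one and 10 were not called (median -0.19). In SUM159PT 6 transporters rose and 9 fell, and in MDA-MB-231 6 rose and 4 fell. Over all tested genes, for comparison here and in the later lists, 17.9% rose and 18.0% fell in SUM159PT. In MDA-MB-231 19.5% of all tested genes rose and 19.2% fell. The difference was called higher in SUM159PT for 12.7% of all tested genes and lower for 11.9%. SLC7A11, the cystine importer, went from 135 ± 22.7 to 202 ± 17.7 CPM in MDA-MB-231 and from 195 ± 21.8 to 108 ± 14 CPM in SUM159PT. Among the cytosolic aminoacyl-tRNA synthetases 11 of 20 were lower and 2 higher (median -0.23). In SUM159PT 14 synthetases fell and 3 rose, and in MDA-MB-231 4 rose and 5 fell. AARS, the alanyl-tRNA synthetase, was at 155 ± 3.57 and 176 ± 2.25 CPM in MDA-MB-231 and at 519 ± 39.0 and 350 ± 9.13 CPM in SUM159PT, a difference of -0.75 (SE 0.06). These lists share members with the stress list, such as CTH, ASNS and SLC7A11. Cytosolic ribosomal protein genes showed small differences in 1 direction: 42 of 79 were lower in SUM159PT, the other 37 were not called, and the median was -0.16. RPL10A, with the smallest p among those named, had log2 effects of 0.24 and -0.19. Here single libraries mattered: the count was 24 without SUM159PT sgNTS replicate 3 or sgYES1 replicates 2 or 3, 25 without MDA-MB-231 sgYES1 replicate 4, 26 without MDA-MB-231 sgNTS replicates 3 or 4, and 27 without SUM159PT sgYES1 replicate 1. Reads of ribosomal protein genes can also match processed pseudogenes, and the sources used here do not say how such reads were counted. By contrast, 12 of 40 nucleolar genes of ribosome assembly had a higher effect in SUM159PT and 1 a lower one (median 0.13).

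Glucocorticoid and FOXO targets also parted. The first respond to the glucocorticoid receptor, and the second rise when growth factor signalling through AKT is low. Of 30 members, 20 had a lower effect in SUM159PT, the other 10 were not called, and the median was -0.55. In MDA-MB-231 15 rose and 3 fell, and in SUM159PT 18 of the 30 fell. The shares over all tested genes were 19.5%, 19.2% and 18.0%, in that order. TSC22D3, the glucocorticoid-induced leucine zipper GILZ, had the smallest p. It was read at 9.81, 9.30, 10.3 and 9.12 CPM in MDA-MB-231 sgNTS and at 14.5, 13.8, 14.3 and 15.2 CPM in sgYES1. In SUM159PT it held 624, 470, 630 and 589 CPM with sgNTS and 195, 217, 212 and 262 CPM with sgYES1. The gene thus rose 1.51-fold from a low level and fell 2.61-fold from a level 60.1-fold higher. ARRDC3, an alpha-arrestin, was at 33.0 ± 1.30 and 51.0 ± 2.38 CPM in MDA-MB-231 and at 63.5 ± 8.45 and 37.1 ± 1.27 CPM in SUM159PT, a difference of -1.40 (SE 0.10).

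Immediate-early and AP-1 genes, which respond within minutes to growth factors and stress, had a lower effect in SUM159PT for 16 of 31 members and a higher one for 3 (median -0.40). In MDA-MB-231 20 rose and 3 fell, and in SUM159PT 8 rose and 9 fell. Of all tested genes 19.5% and 19.2% did so in MDA-MB-231, and 17.9% and 18.0% in SUM159PT. EGR1, a zinc finger factor, was at 23.2, 19.6, 22.9 and 25.8 CPM in MDA-MB-231 sgNTS and at 34.8, 37.7, 36.2 and 32.7 CPM in sgYES1. In SUM159PT sgNTS it ranged widely, 155, 47.0, 130 and 86.8 CPM, and in sgYES1 it was 29.7, 25.7, 25.6 and 22.6 CPM. Every SUM159PT sgNTS library still lay above every sgYES1 library, and the difference was -2.63 (SE 0.30). The MDA-MB-231 rise of EGR1 lost its call without replicate 2 or 3 of either guide group of that line.

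Inflammatory genes rose in the lines together, by different amounts. Of 40 NF-kB and inflammation genes, 35 rose in MDA-MB-231 (median 0.90) and 25 in SUM159PT (median 0.52). Only 29 of the 40 reached 1 CPM in both controls. At the control level 21 were lower and 13 higher in SUM159PT, and the part of read depth in these counts was not tested. The effect was lower in SUM159PT for 16, higher for 4 and not called for 20 (median difference -0.22). RNA of the regulator NFKB1 had log2 effects of -0.03 in MDA-MB-231 and -0.02 in SUM159PT. Neither was called, nor was their difference. List means of the tested markers of other cell types were also higher with sgYES1. Not every marker rose, and most were under 1 CPM in at least 1 control group. In MDA-MB-231 2 of 5 tested leukocyte, 3 of 5 endothelial and 2 of 8 fibroblast markers were called up, and 1 endothelial marker down. In SUM159PT 3, 1 and 3 were called up, in that order. ESAM, the most abundant endothelial marker in MDA-MB-231, went from 106 to 87 CPM there. In SUM159PT KDR went from 7.14 to 5.87 CPM and COL1A1 from 56 to 50.8 CPM. The mean log2 deviation of the tested leukocyte markers (5 of 18) from the control mean of the line was 0.64 to 0.74 in MDA-MB-231 sgYES1 and 0.69 to 1.30 in SUM159PT sgYES1. It was 0.19 to 0.50 and 0.26 to 0.55 for the endothelial markers (5 of 10) and 0.18 to 0.50 and 0.42 to 0.59 for the fibroblast markers (8 of 10). Every one of these sgYES1 ranges lay above the control range of its line. A gene was tested if 1 group had enough reads, so a marker could enter through the group where it is high. ITGAM, a leukocyte marker, went from 0.29 to 1.13 CPM in MDA-MB-231 and from 0.081 to 0.437 CPM in SUM159PT. Of the tested markers, 0 leukocyte, 1 endothelial and 2 fibroblast markers reached 1 CPM in both controls. In SUM159PT TIE1 went from 0.0276 to 0.0806 CPM and ESAM from 0.207 to 0.296 CPM. CD2, CD3E and MS4A1, markers of lymphocytes, had no count in any library, and the part of these markers in the result was not tested. IL6, a secreted cytokine, was at 12.8, 13.1, 13.1 and 12.6 CPM in MDA-MB-231 sgNTS and at 81.2, 76.1, 71.1 and 65.9 CPM in sgYES1. SUM159PT held 10.2, 5.29, 14.8 and 11.9 CPM with sgNTS and 19.0, 14.5, 14.6 and 11.2 CPM with sgYES1, where the groups overlapped. IL6 thus rose 5.70-fold in MDA-MB-231 and 1.42-fold in SUM159PT, a difference of -2.01 (SE 0.23). The SUM159PT rise of IL6 lost its call without sgNTS replicate 1, sgNTS replicate 2 or sgYES1 replicate 1 of that line (edgeR adjusted p = 0.0529, 0.102 and 0.139).

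CSF3, the granulocyte growth factor, rose from 2.59 ± 0.518 to 28.4 ± 1.48 CPM in MDA-MB-231 and from 3.76 ± 1.37 to 9.91 ± 2.86 CPM in SUM159PT. CXCL3, a neutrophil chemokine, rose 4.51-fold and 1.40-fold, and the second call was lost without SUM159PT sgNTS replicate 2 or sgYES1 replicate 1. CXCL2, a close relative, rose 3.53-fold in MDA-MB-231 and was at 63.8 ± 17.4 and 62.2 ± 5.32 CPM in SUM159PT. CXCL1, CXCL2 and CXCL3 are similar in sequence, and it is not known how the counting treated reads that match several of them. Some members went the other way. PTGES, which makes prostaglandin E2, rose 1.45-fold in MDA-MB-231 (44.3 ± 1.59 to 64.3 ± 6.79 CPM) and 4.26-fold in SUM159PT (7.46 ± 0.917 to 31.8 ± 3.62 CPM). TRAF1, an adaptor of TNF receptors, rose 1.84-fold from 63.2 ± 2.78 CPM and 6.18-fold from 1.23 ± 0.462 CPM, in the same order of lines.

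NRF2 targets, genes of the oxidative stress response, rose for 24 of 35 members in MDA-MB-231, while 14 rose and 8 fell in SUM159PT. Of all tested genes 19.5% rose in MDA-MB-231, and 17.9% rose and 18.0% fell in SUM159PT. The effect was lower in SUM159PT for 17 and higher for 1 (median -0.21). FTL, the ferritin light chain, was at 2080, 1990, 2110 and 2160 CPM in MDA-MB-231 sgNTS and at 4140, 3940, 4230 and 4190 CPM in sgYES1. In SUM159PT it was at 2910, 2980, 3060 and 2960 CPM with sgNTS and at 2770, 3060, 2970 and 3020 CPM with sgYES1. The rise of 1.98-fold in MDA-MB-231 met overlapping groups in SUM159PT (log2 effect -0.01, SE 0.04), and the difference was -1.0 (SE 0.05). FTL has processed pseudogenes, so its counts are uncertain. SQSTM1, the autophagy receptor p62, rose 1.92-fold and 1.22-fold, and ABCC3, a drug and bile salt exporter, rose 1.48-fold in MDA-MB-231 and fell 1.23-fold in SUM159PT. NFE2L2, which encodes NRF2, had log2 effects of 0.15 and -0.25, a difference of -0.39 (SE 0.08). Its MDA-MB-231 effect lost its call without any 1 of the 8 libraries of that line.

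Heat shock genes moved mainly in SUM159PT. Of 36 chaperones and co-chaperones, 26 rose there and 1 fell (median 0.28), while 9 rose and 3 fell in MDA-MB-231 (median 0.02). The difference was higher in SUM159PT for 20 and lower for 2 (median 0.23). HSPA1B, an inducible HSP70, was at 104, 108, 108 and 117 CPM in MDA-MB-231 sgNTS and at 140, 128, 131 and 126 CPM in sgYES1, a log2 effect of 0.26 that was not called (edgeR adjusted p = 0.109). In SUM159PT it was at 20.6, 44.2, 17.1 and 24.1 CPM with sgNTS and at 130, 147, 158 and 142 CPM with sgYES1. The guide groups did not overlap in either line, and the sgYES1 levels of the lines overlapped. HSPA1A, whose coding sequence is near-identical so that reads cannot be assigned with certainty, had log2 effects of 0.28 and 2.32. DNAJB1 and DNAJA1, the J-domain partners of HSP70, went from 110 ± 6.63 to 185 ± 3.27 CPM and from 118 ± 10.7 to 215 ± 11.6 CPM in SUM159PT. In MDA-MB-231 DNAJB1 was at 267 ± 3.69 and 251 ± 5.0 CPM and DNAJA1 at 306 ± 2.79 and 316 ± 3.68 CPM. RNA of the regulator HSF1 had log2 effects of 0.0 in MDA-MB-231 and -0.02 in SUM159PT. Neither was called, nor was their difference of -0.02 (SE 0.06).

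Interferon-stimulated genes started from very different levels. At the control level 38 of 50 were lower in SUM159PT and 7 higher, with a median line difference of -1.82. The guide effect was higher in SUM159PT for 18 members and lower for 4 (median 0.23). In SUM159PT 22 rose and 1 fell, and in MDA-MB-231 15 rose and 10 fell. Of all tested genes 17.9% and 18.0% did so in SUM159PT, and 19.5% and 19.2% in MDA-MB-231. IFIT3, which restricts viral RNA, was at 161, 169, 168 and 174 CPM in MDA-MB-231 sgNTS and at 122, 135, 133 and 147 CPM in sgYES1. SUM159PT held 1.70, 1.76, 2.14 and 1.64 CPM with sgNTS and 5.19, 4.97, 6.20 and 4.68 CPM with sgYES1. The gene therefore fell 1.25-fold in MDA-MB-231 and rose 2.92-fold in SUM159PT, where it stayed far below the other line. OASL, a related effector, rose 1.14-fold in MDA-MB-231 (46.4 ± 1.66 to 52.9 ± 1.42 CPM) and 5.32-fold in SUM159PT (1.10 ± 0.372 to 6.15 ± 1.10 CPM). Its MDA-MB-231 rise lost its call without any 1 of the 8 libraries of that line. DHX58, a regulator of RNA sensing, did the reverse of IFIT3: 14.5 ± 1.08 to 19.0 ± 1.31 CPM in MDA-MB-231 and 7.43 ± 0.548 to 5.52 ± 0.392 CPM in SUM159PT.

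Mitotic genes fell in MDA-MB-231 and changed less, or were not called, in SUM159PT. Of 93 members, 90 fell in MDA-MB-231 (median -0.47), while 40 fell and 6 rose in SUM159PT (median -0.09). The difference was higher in SUM159PT for 69 and not called for 24, with a median of 0.34. PLK1, a kinase of spindle assembly (ENSG00000166851, chr16:23677656-23690367, plus strand), was at 187, 175, 178 and 180 CPM in MDA-MB-231 sgNTS and at 100, 109, 114 and 118 CPM in sgYES1. In SUM159PT it was at 163, 183, 159 and 180 CPM with sgNTS and at 160, 173, 168 and 170 CPM with sgYES1. The groups did not overlap in MDA-MB-231 and overlapped in SUM159PT. The log2 effects were -0.70 (SE 0.05) and -0.03 (SE 0.05), and the difference was 0.67 (SE 0.07, edgeR adjusted p = 1.98e-07). FOXM1, a transcription factor of mitotic genes, had log2 effects of -0.53 and -0.11, of which the second was not called.

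A few mitotic genes rose in SUM159PT. FAM83D, which brings casein kinase to the spindle, went from 127 ± 0.959 to 88.8 ± 4.22 CPM in MDA-MB-231 and from 73.4 ± 8.03 to 91.8 ± 3.68 CPM in SUM159PT. ERCC6L, a helicase of anaphase DNA bridges, went from 45.8 ± 1.61 to 32.1 ± 1.88 CPM and from 17.9 ± 3.5 to 24.1 ± 0.60 CPM. CDC25A, a phosphatase that activates cyclin-dependent kinases, was at 69.8 ± 2.79 and 64.1 ± 2.98 CPM in MDA-MB-231 and rose from 70.2 ± 1.82 to 103 ± 7.56 CPM in SUM159PT. The S-phase list had the same form: 58 of 64 members fell in MDA-MB-231, while 15 rose and 15 fell in SUM159PT, and the difference was higher for 44 and lower for 1 (median 0.32). MCM6, a subunit of the replicative helicase, fell 1.52-fold in MDA-MB-231 (138 ± 2.04 to 90.3 ± 1.46 CPM) and was at 149 ± 7.35 and 149 ± 7.89 CPM in SUM159PT. E2F8, a repressor of the E2F family, went from 39.4 ± 1.66 to 21.6 ± 0.669 CPM and from 10.4 ± 1.01 to 12.5 ± 1.01 CPM, and the second call was lost without SUM159PT sgNTS replicate 3 or sgYES1 replicate 2. UHRF1, which maintains DNA methylation, fell 1.34-fold and rose 1.22-fold. FAM111B, a protease, led the genes named for falling in MDA-MB-231 and rising in SUM159PT: it fell from 50.7 ± 0.937 to 32.1 ± 1.27 CPM and rose from 16.7 ± 4.02 to 26.2 ± 1.90 CPM.

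**Figure D3:**
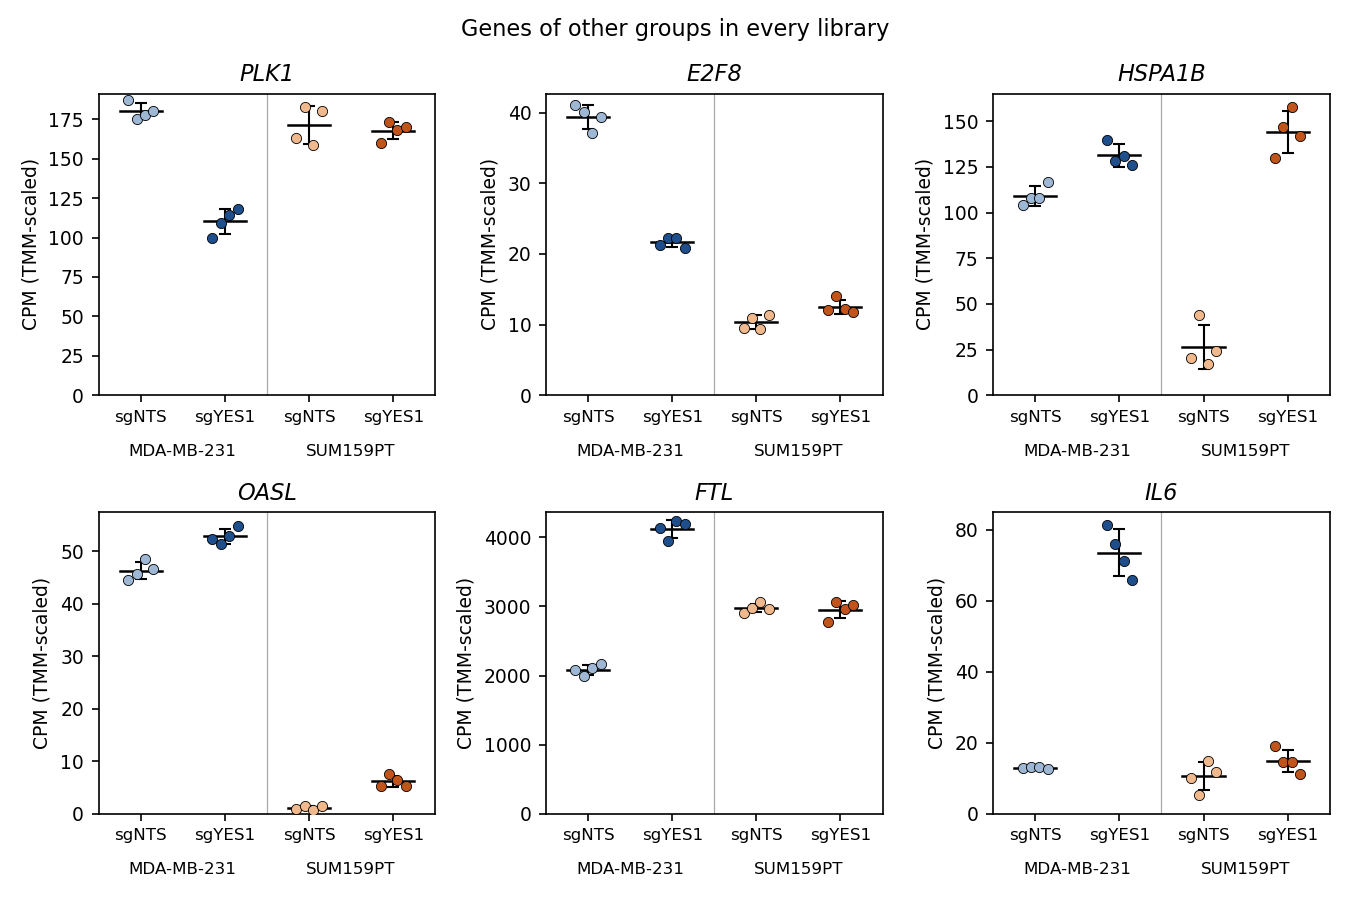
TMM-scaled CPM (vertical, from 0) of 6 genes of other groups in each of the 16 libraries, with the mean and SD of 4 libraries per group. PLK1 falls in MDA-MB-231 and overlaps in SUM159PT, FTL rises in MDA-MB-231 alone, HSPA1B and OASL rise most in SUM159PT, E2F8 moves in opposite directions, and IL6 reaches 65.9 to 81.2 CPM in MDA-MB-231 sgYES1 alone.

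The other genes chosen for falling in MDA-MB-231 and rising in SUM159PT had secretory, lipid and differentiation roles. DKK1, a secreted Wnt inhibitor, went from 252 ± 1.31 to 187 ± 2.25 CPM and from 7.70 ± 1.98 to 13.7 ± 1.10 CPM. GPRC5A, a retinoic acid induced receptor, went from 245 ± 23.1 to 163 ± 5.57 CPM and from 10.5 ± 0.975 to 16.5 ± 1.58 CPM. LPCAT1, an enzyme of phosphatidylcholine remodelling, went from 139 ± 2.29 to 100 ± 7.96 CPM and from 197 ± 26.8 to 305 ± 13.3 CPM. ID1, which blocks basic helix-loop-helix factors, was at 249, 224, 249 and 213 CPM in MDA-MB-231 sgNTS, at 160, 154, 160 and 179 CPM in sgYES1, at 195, 225, 212 and 205 CPM in SUM159PT sgNTS and at 271, 296, 289 and 257 CPM in sgYES1. Its control levels were close (1.12-fold apart) and its effects opposite, with a difference of 0.93 (SE 0.08). ID2, a paralog, was at 19.8 ± 0.878 and 18.3 ± 1.00 CPM in MDA-MB-231 and rose 3.45-fold in SUM159PT, from 2.24 ± 0.301 to 7.79 ± 1.03 CPM.

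Among genes called in 1 line with little change in the other, SCG5, a chaperone of a prohormone convertase, rose from 8.28 ± 0.340 to 37.6 ± 2.97 CPM in MDA-MB-231 and was at 9.45 ± 1.91 and 8.55 ± 1.52 CPM in SUM159PT. STMN3, a tubulin-binding stathmin, fell 1.74-fold in MDA-MB-231, and ENDOD1 and GPRIN1 fell 1.56-fold and 1.54-fold. Their SUM159PT log2 effects were 0.17, 0.13 and 0.12, none of them called. In SUM159PT alone, C1R, a protease of the complement system, rose 3.73-fold and PTX3, a soluble pattern receptor, 2.74-fold. PHLDA1 fell 2.31-fold there. A pair of named genes rose in both lines and more in SUM159PT: BAMBI, a decoy receptor of the TGF-beta family (1.51-fold and 3.56-fold), and APOL3, an apolipoprotein L (1.54-fold and 3.42-fold).

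Receptor and adhesion genes are the setting in which Src-family kinases act. Of 16 EGFR family, ligand and MET genes 6 had a lower effect in SUM159PT, against 11.9% of all tested genes. The one with the smallest p was NRG1, a ligand of ERBB3 and ERBB4. NRG1 was at 49.8 ± 0.458 and 48.6 ± 1.35 CPM in MDA-MB-231 and at 20.6 ± 1.41 and 10.1 ± 0.811 CPM in SUM159PT. ERRFI1, an inhibitor of EGFR, was at 360 ± 8.99 and 348 ± 10.4 CPM in MDA-MB-231 and fell 2.30-fold in SUM159PT, from 294 ± 59.1 to 127 ± 8.17 CPM. Of 40 Src substrates and adhesion genes, 13 had a higher effect in SUM159PT and 4 a lower one (median 0.09). Of all tested genes, 12.7% were called higher and 11.9% lower. CAVIN1, a coat protein of caveolae, had log2 effects of -0.21 and 0.22, and LAMB3, a laminin chain, rose 1.25-fold and 2.04-fold from levels of 898 ± 20.9 and 13.4 ± 2.29 CPM.

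In several lists the differences were balanced between the directions. Among YAP and TAZ targets, 8 of 34 were higher and 9 lower in SUM159PT (median 0.01), and both lines had more falls than rises (19 against 3 in MDA-MB-231, 17 against 4 in SUM159PT). Of 40 hypoxia and glycolysis genes 10 were higher and 6 lower (median 0.01). For genes of the unfolded protein response in the endoplasmic reticulum, 5 of 29 were higher and 7 lower (median 0.00), and for p53 targets 6 of 28 were higher and 7 lower (median -0.01). Cholesterol synthesis and uptake differed for 2 of 25 genes in each direction (median 0.01).

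**Figure D4:**
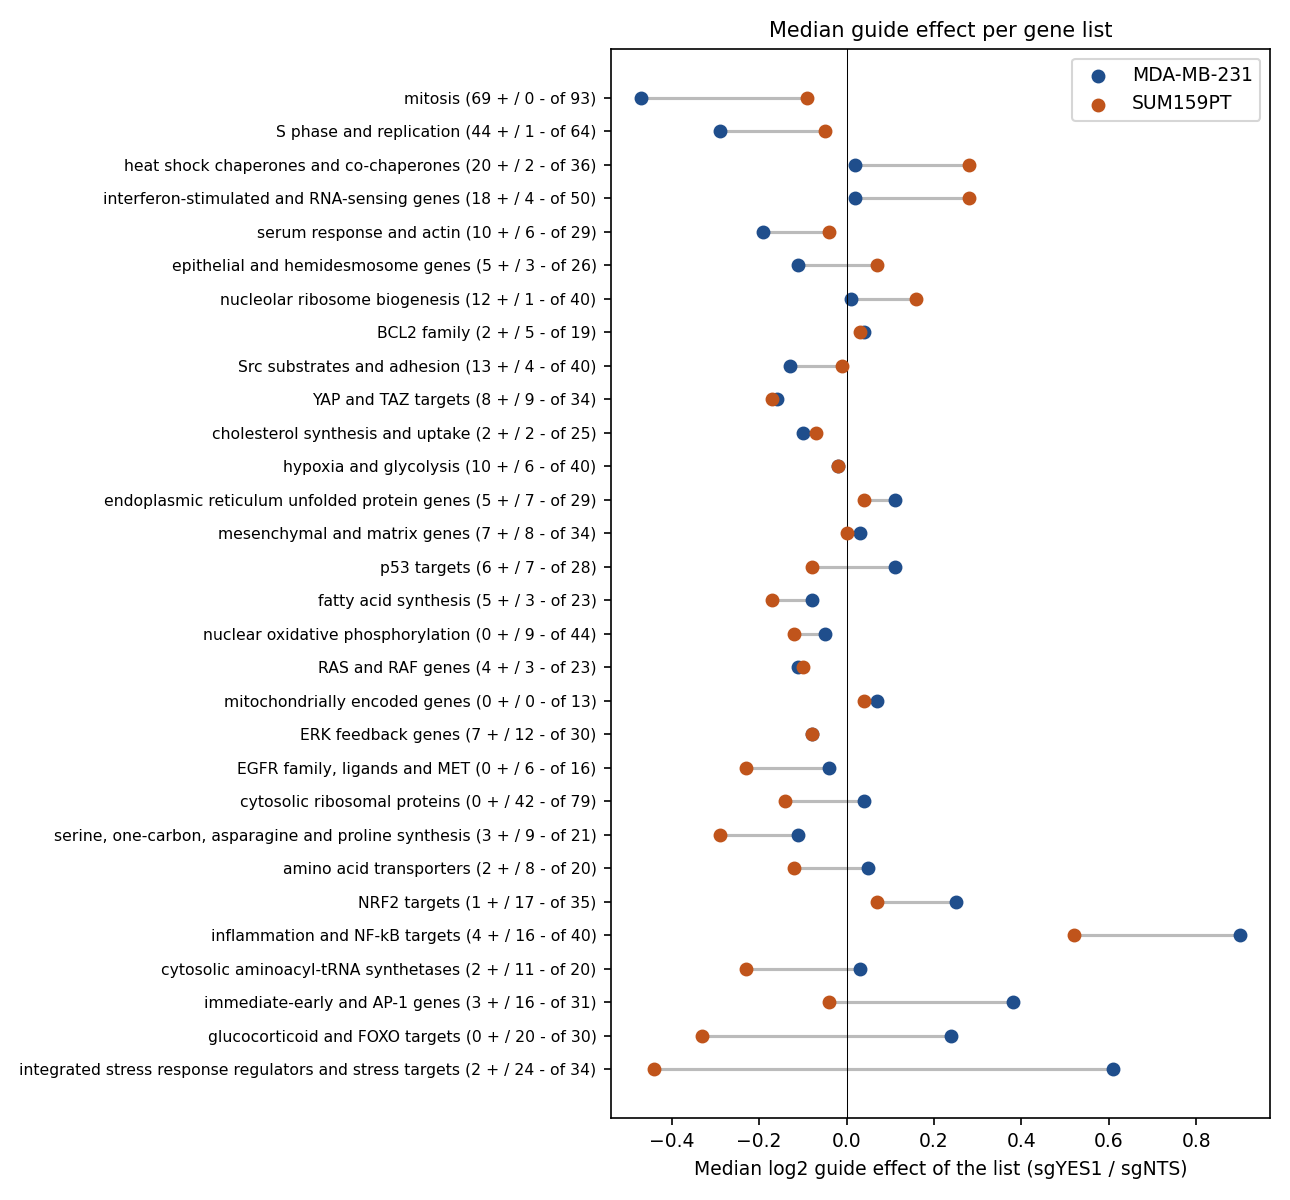
Median log2 guide effect of the tested members of 30 gene lists in MDA-MB-231 (blue) and SUM159PT (orange), ordered by the median difference. In brackets are the members whose effect was called higher (+) or lower (-) in SUM159PT, of those tested. The integrated stress response list runs from 0.61 to -0.44 and the mitosis list from -0.47 to -0.09.

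List means were also taken for every library. As a description, the mean log2 deviation of the integrated stress response list from the control mean of its line was 0.52 to 0.59 in the 4 MDA-MB-231 sgYES1 libraries and -0.62 to -0.47 in the 4 SUM159PT sgYES1 libraries. MDA-MB-231 controls lay between -0.02 and 0.03, and SUM159PT controls between -0.31 and 0.15. For mitosis the sgYES1 ranges were -0.48 to -0.39 and -0.14 to -0.06, with SUM159PT controls at -0.05 to 0.09. For heat shock they were 0.10 to 0.13 and 0.55 to 0.60. For inflammation they were 1.11 to 1.27 and 0.57 to 0.83, with SUM159PT controls at -0.33 to 0.30. In these 4 lists no sgYES1 library fell within the control range of its line. This was not so for all described lists. For S phase the SUM159PT sgYES1 libraries lay at -0.03 to 0.01, within the controls of that line at -0.05 to 0.07. Immediate-early genes (0 to 0.18 against controls at -0.18 to 0.13) and amino acid transporters (-0.18 to -0.08 against -0.1 to 0.05) also overlapped in SUM159PT. In MDA-MB-231 amino acid synthesis (-0.08 to -0.01 against -0.06 to 0.1) and interferon-stimulated genes (0 to 0.11 against -0.02 to 0.03) overlapped. So did the tRNA synthetases and ribosomal protein genes of that line. The EGFR family, ligand and MET list overlapped in both lines.

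**Figure D5:**
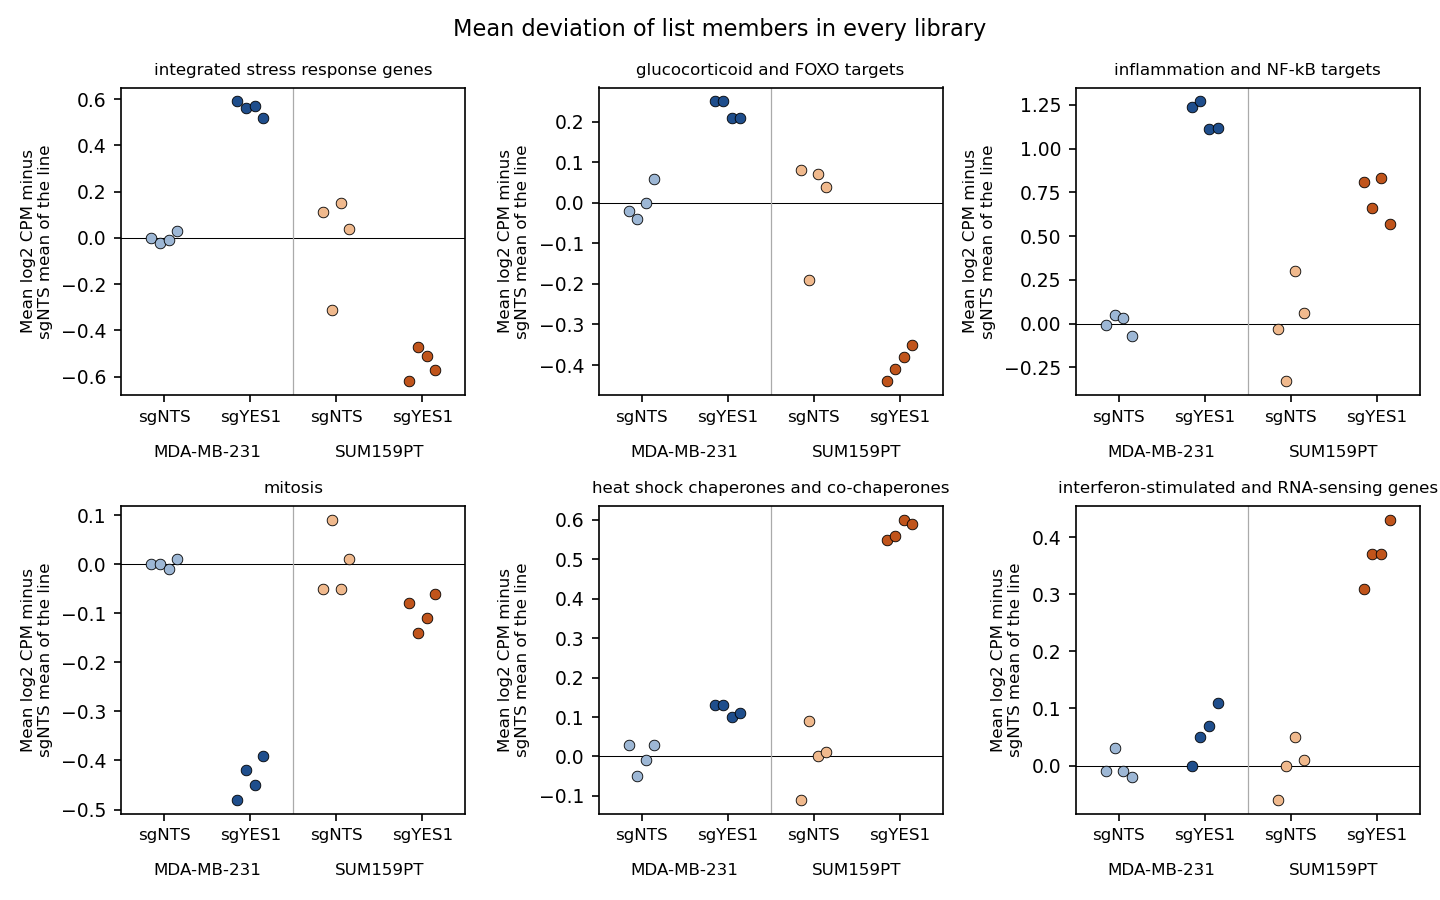
Mean log2 CPM of the members of 6 gene lists in each library, minus the mean of the sgNTS libraries of the same line (vertical), for 4 libraries per group. Points of the integrated stress response and of the glucocorticoid and FOXO targets lie above 0 in MDA-MB-231 sgYES1 and below 0 in SUM159PT sgYES1, and SUM159PT sgNTS replicate 2 is the lowest control in the first 3 panels.

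Some genes were read almost entirely in 1 line. Of genes under 0.5 CPM in both groups of SUM159PT and at 5 CPM or more in MDA-MB-231, 342 in number, the guide raised 49 and lowered 125, and 40 (11.7%) were called for the difference, against 24.5% of all tested genes. In the reverse case 187 genes were read in SUM159PT, of which 32 rose, 56 fell and 13 (6.95%) were called for the difference. Of all tested genes, 19.5% rose and 19.2% fell in MDA-MB-231, and 17.9% rose and 18.0% fell in SUM159PT. CXCL1, a chemokine, was at 23.7, 23.3, 23.9 and 20.8 CPM in MDA-MB-231 sgNTS and at 111, 122, 94.9 and 103 CPM in sgYES1, and all SUM159PT libraries were at or under 0.0663 CPM. IL24, a cytokine of the IL10 family, was at 14.5, 15.9, 17.8 and 19.1 CPM and at 79.9, 66.3, 77.2 and 62.1 CPM in MDA-MB-231, and at or under 0.542 CPM in SUM159PT. BDKRB1, a bradykinin receptor, was at 3.98, 5.41, 6.14 and 5.05 CPM and at 14.6, 13.3, 14.7 and 9.42 CPM in SUM159PT, and at or under 0.211 CPM in MDA-MB-231. CIDEC, a lipid droplet protein, was at 2.61, 5.10, 3.78 and 3.12 CPM and at 7.09, 8.62, 9.36 and 8.63 CPM in SUM159PT, and at or under 0.285 CPM in MDA-MB-231. There CIDEC had no count in any sgNTS library and at least 1 in each sgYES1 library, a rise that was also called (edgeR adjusted p = 0.0109), and its difference between lines was not (adjusted p = 0.085). The guide groups of these 4 genes did not overlap in the line that has them. For IL24 and BDKRB1 the difference of log2 effects passed the test (-1.53, SE 0.52, and 2.13, SE 0.70; edgeR adjusted p = 0.0326 and 0.0259), but it sets a well-read line against one at a few counts, and it lost its call without any of SUM159PT sgNTS replicates 1 or 3 or sgYES1 replicates 1, 2 or 3 for IL24 and without any of MDA-MB-231 sgNTS replicates 3 or 4 or sgYES1 replicates 1 or 4 for BDKRB1.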

How the data were processed

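Poly-A RNA of 16 samples was sequenced. For each line the authors deposited a table of gene counts, whole numbers that had not been normalized. The submitters' processing notes name HISAT2 2.0.5, build hg38 and featureCounts 1.5.0-p3. Strand and multi-mapping settings were not stated there, so overlapping, antisense and near-identical genes are uncertain. Gene positions are those of the deposited tables.

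Both tables were joined by gene ID. Genes were kept by filterByExpr over the 4 groups (smallest count 10, smallest total 15), scaled by TMM and fitted with edgeR 4.0.16 in R 4.3.3 with 1 mean per group over all 16 libraries (12 residual degrees of freedom, biological coefficient of variation 5.78%). Quasi-likelihood F-tests, two-sided, were adjusted over all tested genes by Benjamini-Hochberg and called under 0.05. The tested contrasts were the guide effect in each line, the difference of the effects (SUM159PT minus MDA-MB-231), and the line difference in each guide. Levels are TMM-scaled CPM, errors are the SD over 4 libraries or, for log2 effects, the SE of the fit, and list means used log2 CPM with a prior count of 2. The code was tested on simulated counts.

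The comparison, the members and the 30 gene lists and 4 marker lists (1063 of 1084 symbols in the tables) were chosen with earlier results of these data known, so counts over them are descriptions. Genes were named by rule among called protein-coding genes with at least 5 CPM in each line. The rule took 6 per orientation with the largest smaller effect among opposite, non-overlapping genes, and 3 per line with the largest difference among genes of the same direction. It took 3 per line and direction among genes called in 1 line with an absolute effect under 0.2 in the other, and 2 per line among genes read in 1 line (under 0.5 CPM in the other). YES1, the members of each described list with the lowest p (at most 4) and the regulators ATF4, NFE2L2, HSF1, FOXM1 and NFKB1 were added. The regulators were named whatever their values. Alternatives were other scalings, filters and tools (limma 3.58.1, DESeq2 1.42.0), a replicate block and leaving out libraries.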

Additional observations from a re-analysis of the deposited data

Results flagged for a closer look

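The guide effect differed between the lines for 64 of the genes described (edgeR interaction test, adjusted p under 0.05). Differences are log2 effects of SUM159PT minus MDA-MB-231. Among integrated stress response, amino acid and ribosomal protein genes they were -2.81 for SESN2, -3.35 for CHAC1, -2.30 for CTH, -1.90 for GADD45A, -1.75 for DDIT3, -2.14 for DDIT4, -1.69 for TRIB3, -0.91 for ATF4, -1.47 for ATF3, -2.65 for ASNS, -1.43 for SLC7A11, -1.29 for PCK2, -1.14 for GPT2, -0.75 for AARS and -0.43 for RPL10A. Growth factor, FOXO and immediate-early genes gave -1.98 for TSC22D3, -1.40 for ARRDC3, -2.63 for EGR1, -1.15 for ERRFI1, -1.39 for PHLDA1 and -1.0 for NRG1. Inflammation genes gave -2.07 for CSF3, -2.01 for IL6, -1.69 for CXCL3, -1.85 for CXCL2, -1.53 for IL24, 1.55 for PTGES, 1.75 for TRAF1, 1.53 for PTX3, 1.79 for C1R, 1.15 for APOL3 and 2.13 for BDKRB1. NRF2-related genes gave -1.0 for FTL, -0.87 for ABCC3, -0.65 for SQSTM1 and -0.39 for NFE2L2. In chaperone and interferon-stimulated genes the differences were 2.17 for HSPA1B, 2.04 for HSPA1A, 0.84 for DNAJB1, 0.82 for DNAJA1, 1.87 for IFIT3, 2.22 for OASL and -0.82 for DHX58. Cell cycle genes had differences of 0.67 for PLK1, 0.84 for FAM83D, 0.93 for ERCC6L, 0.68 for CDC25A, 1.12 for E2F8, 0.71 for UHRF1, 0.61 for MCM6, 0.42 for FOXM1 and 1.31 for FAM111B. The remaining genes had differences of 1.24 for GPRC5A, 1.09 for LPCAT1, 1.26 for DKK1, 0.93 for ID1, 1.23 for BAMBI, -2.32 for SCG5, 0.97 for STMN3, 0.77 for ENDOD1, 0.74 for GPRIN1, 1.90 for ID2, 0.43 for CAVIN1 and 0.70 for LAMB3.

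In 8 of 268 groups of 4 libraries examined (2.99%), 1 library lay far from the other 3 (beyond Dixon's 95% critical value); chance marks about 1 in 20 groups. CHAC1 was 13.3 CPM in MDA-MB-231 sgYES1 replicate 2 against 11.5 to 11.8 CPM in the others, and 8.69 CPM in SUM159PT sgYES1 replicate 1 against 11.9 to 12.5 CPM. CTH was 14.1 CPM and STMN3 97.4 CPM in MDA-MB-231 sgYES1 replicate 4, against 17.0 to 17.4 CPM and 84.8 to 85.8 CPM. PTX3 was 134 CPM in MDA-MB-231 sgYES1 replicate 2 against 120 to 121 CPM. DHX58 was 6.10 CPM in SUM159PT sgYES1 replicate 2 against 5.28 to 5.42 CPM. ATF4 was 450 CPM in SUM159PT sgNTS replicate 2 against 542 to 550 CPM, and 323 CPM in SUM159PT sgYES1 replicate 2 against 329 to 330 CPM.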

How the results depend on the processing

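Of 64 described genes called for the difference, 62 were called under all 25 alternatives run, and IL24 and BDKRB1 were the exceptions. Most of these genes were named for large effects or a small p in the same libraries. Their count therefore does not measure how stable the other calls were. Calls within 1 line were less stable: the guide effect was called under 20 of the 25 for IL6 and 21 for CXCL3 in SUM159PT (lost also with DESeq2, adjusted p = 0.0919 and 0.064), 22 for E2F8 in SUM159PT, and 13 for ASNS, 19 for EGR1, 9 for OASL and 7 for NFE2L2 in MDA-MB-231. In MDA-MB-231 DNAJB1 and CDC25A, not called in the full data, were called under 17 and 15 alternatives, and HSPA1B under 4. For genes read in 1 line, the CXCL1 difference of 0.14 turned to -1.58 with limma, to -0.91 with DESeq2, and ranged from -0.31 to 0.54 when single libraries were left out, never past the threshold. Leaving out 1 library gave 3706 to 4365 differing genes, of which 3417 to 3720 were among the 4085 of the full data, and other alternatives gave 3817 to 4228, sharing 3590 to 4001. At a threshold of at least 2-fold the count was 568. Guide effects fitted within each line put 225 differing genes in the class called in neither line (143 in the joint fit). Genes up in MDA-MB-231 and down in SUM159PT numbered 165 to 269 when single libraries were left out (273 in the full data), and ribosomal protein genes lower in SUM159PT 24 to 44 (42 in the full data); the cause was not tested. The replicate numbers were not used as pairs in the main fit. Same-numbered deviations correlated at -0.266 to 0.102 in MDA-MB-231, where unlike numbers ran from -0.172 to 0.29. In SUM159PT same-numbered correlations were small but all positive, 0.0291 to 0.0944, and unlike numbers ran from -0.0524 to 0.0427. Replicate 2 of SUM159PT sgNTS correlated better with number 4, and whether the numbers mark pairs in that line was not tested. With the replicate number as a block (6 residual degrees of freedom), 3817 genes were called. Of genes under 1 CPM in both controls, 4.43% were called, and the part of depth in this was not tested.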
